A study of Mus musculus with 33 samples.

Results

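Skin in mid catagen (P41, where P is the postnatal day) was compared with skin in early catagen (P37 and P39) during the second natural hair growth cycle of the mouse. Arrays were chosen by the day in their titles, which gave 3 mid catagen arrays and 6 early catagen arrays (3 at P37 and 3 at P39), together 9 of the 33 in the series. All of these mice were wild-type C57BL/6 animals that received no treatment, and each array held RNA from the upper-mid back skin of 1 mouse, so that replicates were separate animals. There were 1 female and 2 males at P37, 2 females and 1 male at P39, and 1 female and 2 males at P41. The description of the series assigns P37 and P39 to early catagen and P41 to mid catagen by follicle morphology, whereas the labels of the P41 samples carry the words early anagen, and the days were followed here. All skin was taken in the same afternoon window of several hours, so the time of day could differ between mice.

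Catagen is the regression phase of the hair follicle. The matrix keratinocytes that build the hair shaft and its sheaths stop dividing, melanocytes of the bulb stop making pigment, the epithelium of the lower follicle dies and is drawn up behind the dermal papilla, and a club hair remains above the bulge, where the stem cells reside. Telogen, the resting phase, follows. In whole skin a lower signal can come from a smaller share of a cell type or from less RNA in each cell. A higher signal can come from a larger share or from more RNA in each cell. Share and RNA per cell cannot be told apart here.

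A look at a proliferation gene bears on the label of P41. Mki67, a marker of dividing cells, stood at 1181, 547 and 520.3 on the P41 arrays, beside 5871 and 6312 at P23 and 5236 and 7232 at P25, the early anagen days, and 601, 615 and 684 at P44, the telogen day. The P41 levels of Mki67 lay at the telogen level in replicates 2 and 3 and above it in replicate 1, and all were far under every early anagen value. Krt35, a keratin of the forming hair shaft, is set beside telogen only. It stood at 3054, 1350.1 and 2304 at P41 and at 92.8, 73.5 and 60.7 at P44.

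Differences between the phases were widespread. Of 26988 probe sets tested, 9534 (35.3%) had an adjusted p under 0.05 in the limma fit of the 9 arrays, which is what "called", "rose" and "fell" mean below. In mid catagen 4699 were higher (17.4%) and 4835 lower (17.9%). With each gene represented by 1 probe set, 5026 of 12867 genes were called (39.1%), of which 2649 were higher (20.6%) and 2377 lower (18.5%), and the median log2 difference over all genes was 0.04. Among genes, rises were more numerous and falls were deeper. At least 2-fold higher were 783 called genes, and at least 2-fold lower 534. At 4-fold these numbers were 23 and 102, and at 8-fold 2 and 28. Among probe sets falls were the more numerous, and the balance moved with the processing. With median centring 4203 probe sets were higher and 5388 lower, and in a joint fit of all 33 arrays 4993 and 4840. The 3 P41 arrays did not overlap the 6 early catagen arrays in 5017 of the 12867 genes (39.0%), of which 4368 were called, with 20.0% of all genes above and 19.0% below the early catagen range. Signals (MAS 5.0 units, on arrays scaled to a common mean) of different genes come from different probes, so levels are compared only within a gene. For each gene the lowest, highest and median of the 6 early catagen arrays and the 3 P41 values in replicate order are given, and differences are mid minus early catagen on the log2 scale with the standard error of the fit. Among the genes named below as having risen or fallen, Bcl2l11, Cry2, Itgb6, Krt84, Lgr5, Npas2, Rab27a and Tgfb2 overlapped between the phases and the others did not.

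**Figure D1:**
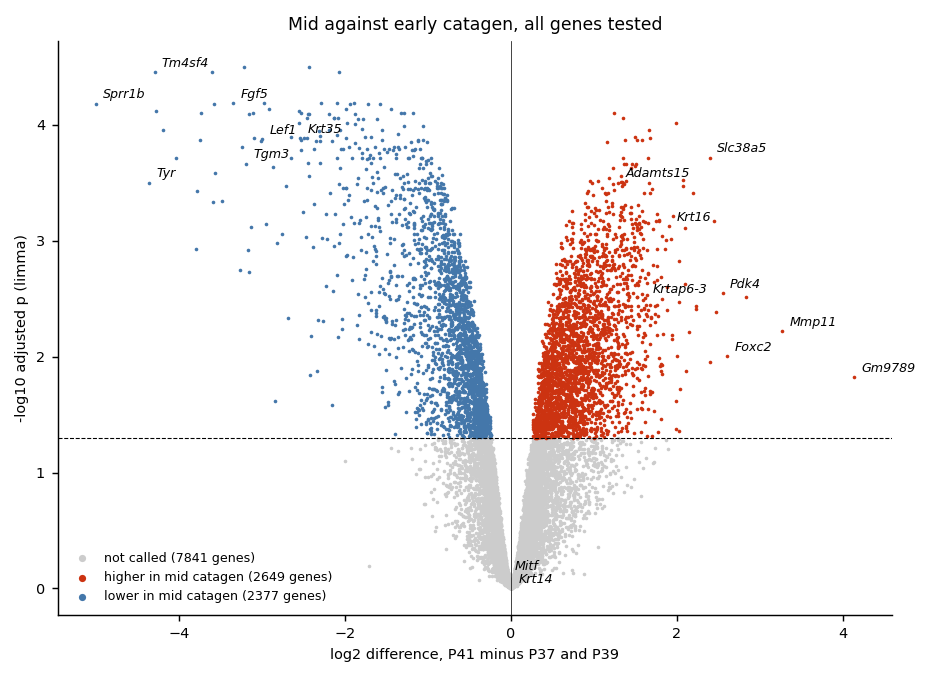
Each point is 1 of the 12867 genes. The horizontal axis is the log2 difference between mid catagen (P41, 3 arrays) and early catagen (P37 and P39, 6 arrays), the vertical axis is −log10 of the adjusted p from limma, and the dashed line marks an adjusted p of 0.05. Falls reach a log2 difference of −5.01 (Sprr1b) and rises 4.14 (Gm9789), while Mitf and Krt14 lie near 0.

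The 9 mice did not all sit at the same distance. The first principal component, with 52.1% of the variance, put the P41 arrays at 51.7, 73.7 and 78.7 and the early catagen arrays between −57.9 and −9.3, with P37 replicate 2 nearest to mid catagen. Among the called genes P37 replicate 2 was the early catagen array closest to the P41 side in 38.7%, including 11 of the 15 largest rises and 13 of the 15 largest falls, against 6.2% for P39 replicate 2. Xist and the Y-linked genes matched the labelled sex of each mouse. Within P41, replicate 1 (the female) was the array closest to early catagen in 52.5% of called genes. P39 replicate 2 stood apart in another respect, with low levels of epidermal genes, and the epidermal results are given with and without it. Without P41 replicate 2 the probe sets called numbered 5648 and without P41 replicate 3 they numbered 6240, and without the other arrays they numbered 8042 to 9654.

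**Figure D2:**
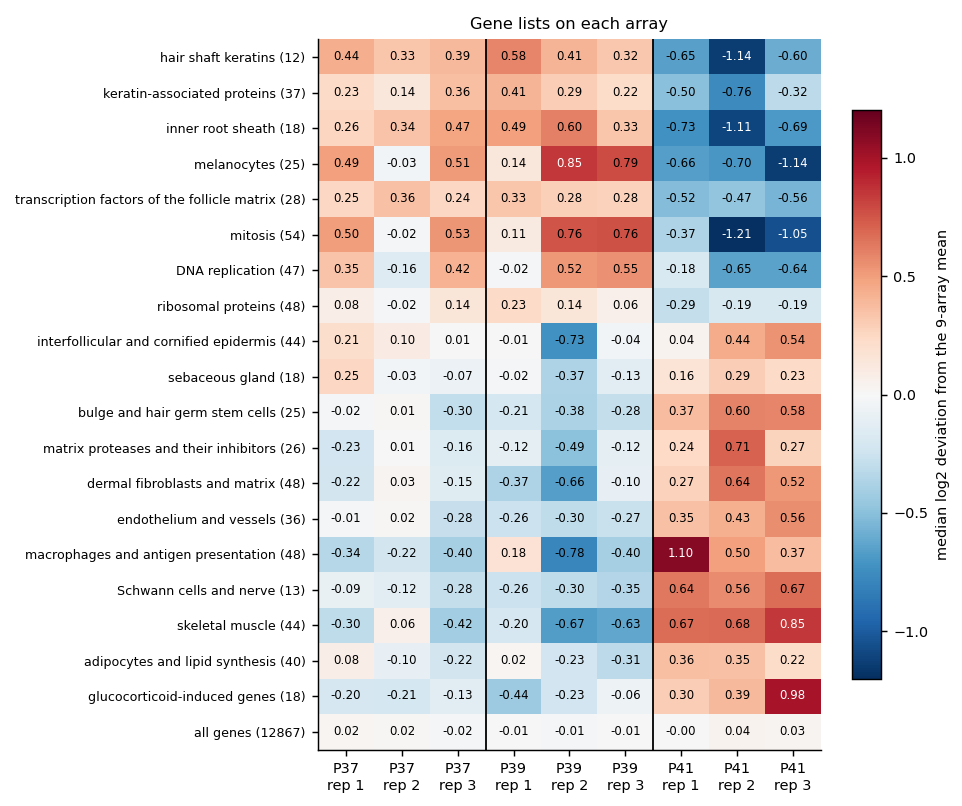
Rows are 19 of the gene lists with the number of genes measured, and all genes. Columns are the 9 arrays, and each cell gives the median over the genes of a list of the log2 signal minus the mean of that gene over the 9 arrays. For mitosis P37 replicate 2 (−0.02) and P39 replicate 1 (0.11) lie lowest of the early catagen arrays and P41 replicate 1 (−0.37) highest of the P41 arrays. For the epidermis list P39 replicate 2 stands at −0.73.

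The products of the lower follicle fell together. Of 12 hair shaft keratins measured, 10 fell and 1 rose, with a median log2 difference of −1.18, and 4 fell in a joint fit of all 33 arrays, which shares 1 estimate of the spread. Krt35 measured 11236 to 13447 (median 12201) on the early catagen arrays and stood at 3054, 1350.1 and 2304 at P41. Every P41 value was far below the lowest early catagen value, and Krt35 fell by 2.54 ± 0.22 on the log2 scale (adjusted p = 0.00013). Krt82, a keratin of the hair cuticle, had signals of 2753 to 3322 (median 2984) in early catagen and 836, 482 and 704 at P41, and fell by 2.19 ± 0.16 on the log2 scale (adjusted p = 8.2e-05). Krt32 and Krt31 fell by 1.84 and 1.80, and the smallest of the 10 falls was that of Krt34, 1.04 ± 0.12. In all 10 the groups did not overlap, as in 19.0% of all genes on the lower side, and P41 replicate 2 was the lowest array in each. Krt84 and Krt36, of the cuticle and cortex, were not lower. Krt84 measured 1557 to 2742 (median 2149) in early catagen and 2472, 3680.3 and 5338 at P41, with P41 replicate 1 inside the early catagen range, and rose by 0.82 ± 0.25 on the log2 scale (adjusted p = 0.031), but did not pass without P39 replicate 1 or 3 or P41 replicate 2 or 3 (adjusted p = 0.0546 to 0.14). Without P41 replicate 3 its difference was 0.54. For Krt36 the difference was 0.92 ± 0.38 (adjusted p = 0.085), with P41 values of 1402, 4369 and 5954 against 1438 to 2002 (median 1827), and it was 0.50 without P41 replicate 3 and 1.54 without P41 replicate 1.

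Keratin-associated proteins, which fill the matrix between keratin filaments of the shaft, showed the same direction with more spread. Of 37 measured, 29 fell and 1 rose (median −0.80), and the joint fit gave 9 falls and no rise. Genes of this family are alike in sequence, so a probe set may also detect a relative. Krtap5-5 measured 5696 to 7526 (median 6521) in early catagen and 1684, 1084 and 1767 at P41, and fell by 2.14 ± 0.16 on the log2 scale (adjusted p = 8.8e-05). The 1 member that rose, Krtap6-3, measured 4440.3 to 11820.1 (median 7411) in early catagen and 22731, 21483 and 24374 at P41. All 3 of its P41 values were above the early catagen range, and the gene rose by 1.62 ± 0.29 on the log2 scale (adjusted p = 0.0031). Among other shaft proteins 7 of 8 fell and none rose (median −1.59). Tgm3, a transglutaminase that cross-links shaft and sheath proteins, measured 2401 to 5170.3 (median 3693) in early catagen and 336, 271 and 650.5 at P41, and fell by 3.20 ± 0.31 on the log2 scale (adjusted p = 0.00022). Hephl1, a copper-dependent oxidase, fell by 2.30 ± 0.19, and S100a3, a calcium-binding protein of the cuticle, by 1.74 ± 0.17.

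The inner root sheath, the layers that mould the growing shaft, had 15 of 18 genes lower and none higher (median −1.30). Krt28 measured 16029 to 22732 (median 21036) in early catagen and 5622, 2607 and 4665 at P41, and fell by 2.30 ± 0.22 on the log2 scale (adjusted p = 0.00021), and Krt72, which stood at 18458 to 26914 (median 22369) in early catagen, was at 7135, 4724 and 7131 at P41, a fall by 1.84 ± 0.16. Padi4, a deiminase of the sheath, fell by 1.79 ± 0.14. The keratins Krt25, Krt27 and Krt71 fell by less, 0.53, 0.47 and 0.51, and Krt71 had an adjusted p of 0.0503 without P41 replicate 2. Trichohyalin (Tchh), the cross-linked filler protein of the sheath, had signals of 15588 to 24282 (median 17899) and, at P41, of 19138, 18778 and 19694. Its P41 values lay inside the early catagen range, with a difference of 0.03 ± 0.14 (adjusted p = 0.88).

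Upstream stretches of genes from these groups are shown because a short motif recurs near their starts. They are RefSeq promoters of build GRCm38.p6 on the strand of the gene, ending at the base before the start of the transcript, with TATAAA in capitals. Krt31 (chr11:100050552-100050611, minus strand), Krt28 (chr11:99374904-99374963, minus strand), Tgm3 (chr2:130012280-130012339, plus strand) and, from the cornified epidermis genes described below, Sprr1b (chr3:92438780-92438839, minus strand) hold it with its first base 29, 30, 28 and 30 bases before the start.
Krt31: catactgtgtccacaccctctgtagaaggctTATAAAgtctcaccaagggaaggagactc
Krt28: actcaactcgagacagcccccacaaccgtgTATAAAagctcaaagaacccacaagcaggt
Tgm3: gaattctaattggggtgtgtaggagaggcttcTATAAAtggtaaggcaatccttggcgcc
Sprr1b: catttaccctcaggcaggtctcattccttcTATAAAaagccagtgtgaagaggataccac
Within 250 bases before the start, and on either strand, TATAAA was found in 5 of 7 hair shaft keratin genes, 9 of 15 inner root sheath genes and 27 of 35 keratin-associated protein genes with a promoter in the table, and in 14.3% of all 27025 genes (12.4% of promoters). The match describes these letters and no more.

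**Figure D3:**
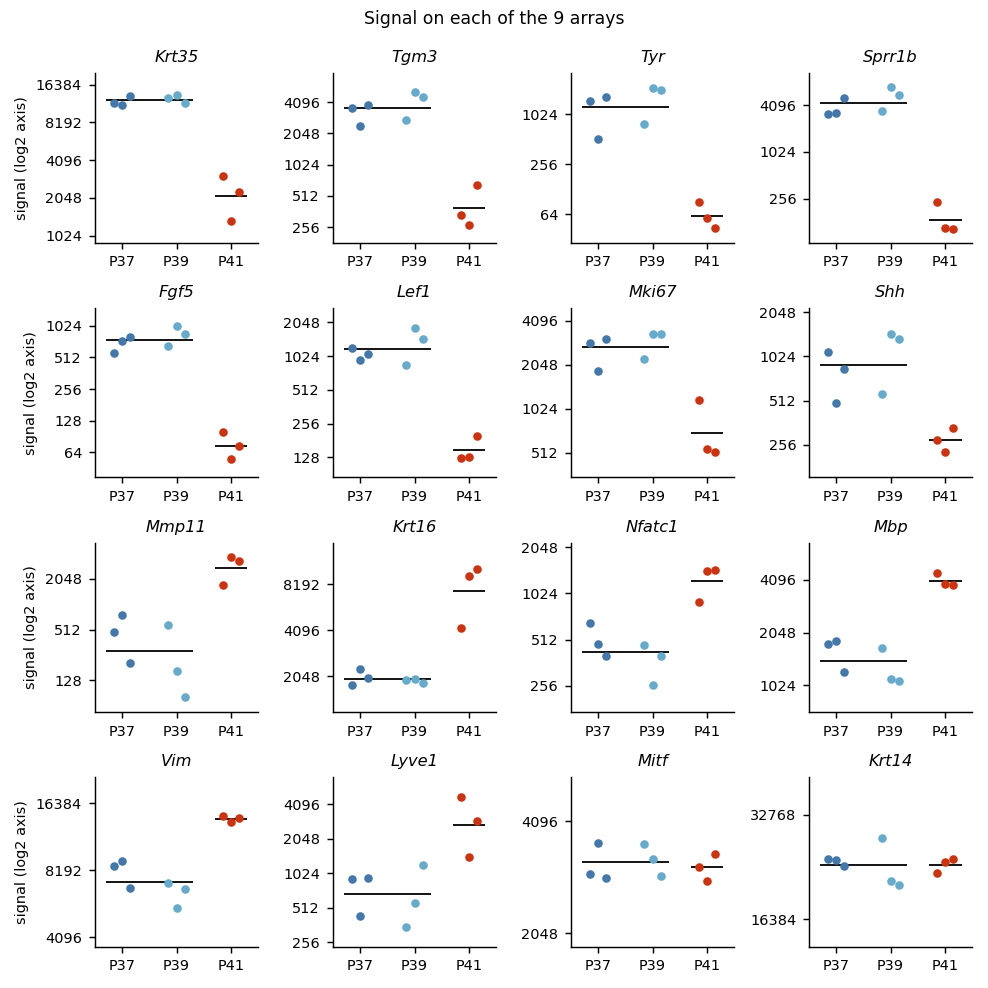
Signal of 16 genes on each of the 9 arrays, on a log2 axis. Points are arrays in replicate order from left to right (P37 and P39 in blue, P41 in red), and lines are the means of the log2 signals of early catagen and of mid catagen. The first 8 genes are lower at P41 with no overlap, the next 6 are higher with no overlap, and Mitf and Krt14 overlap.

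Pigment cell genes included several of the deepest falls of the comparison. Of 25 melanocyte genes measured, 18 fell and 1 rose (median −1.10). Tyrosinase (Tyr), the rate-limiting enzyme of melanin synthesis, measured 512 to 2129 (median 1563) in early catagen and 90.3, 58.1 and 43.7 at P41, and fell by 4.37 ± 0.46 on the log2 scale (adjusted p = 0.00032). Every P41 value of Tyr was far under the early catagen range, of which P37 replicate 2 was the lowest. The related enzymes Tyrp1 and Dct had the same pattern. Tyrp1 had signals of 1018 to 5453 (median 3874) in early catagen and 142, 208 and 324 at P41, a fall by 3.80 ± 0.54 (adjusted p = 0.0012), and Dct had signals of 1716 to 7384 (median 6500.3) in early catagen and 437, 620.1 and 558 at P41, a fall by 3.17 ± 0.45 (adjusted p = 0.0012). Pmel, which forms the fibrils of the melanosome, fell by 3.79 ± 0.42, and the melanosomal protein Mlana by 3.27 ± 0.51. Trpm1, a cation channel of melanocytes, measured 293 to 1075 (median 790.1) in early catagen and 3.0, 5.6 and 50.1 at P41, where 2 of 3 arrays were under the floor of 34.6 at which low signals were set, so its fall of 4.04 may be understated. Oca2, an ion transporter of the melanosome, had 1 P41 array under the floor and fell by 3.60, and Mc1r, the melanocortin receptor, had 2 and fell by 2.28. Slc24a4, a potassium-dependent exchanger, measured 99.7 to 176 (median 151) in early catagen and 5.3, 7.7 and 24.6, all under the floor, at P41, and fell by at least 2.06.

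The lowest early catagen value of Tyr, Tyrp1, Dct, Pmel and Mlana came in each case from P37 replicate 2, with Dct at 1716 against 3162 on P39 replicate 1 and 6278 to 7384 on the other 4 arrays. Without P37 replicate 2, 18 of the melanocyte genes fell. Mitf and Sox10, regulators of the lineage, did not pass the test. Mitf, the transcription factor that directs melanocyte genes, had signals of 2879 to 3583 (median 3093) and, at P41, of 3079.5, 2824 and 3342, and Sox10, which acts upstream of it, of 122 to 218 (median 146) and 129, 193 and 159. Both overlapped between the phases, with differences of −0.05 ± 0.11 (adjusted p = 0.77) and 0.04 ± 0.21 (adjusted p = 0.91). Kit, the receptor for stem cell factor that mast cells share with melanocytes, fell by 1.10 ± 0.16. The 1 member that rose was Rab27a, a GTPase of melanosome transport (0.62 ± 0.16), which did not pass without P41 replicate 2 or 3 (adjusted p = 0.0589 to 0.071). Mitf is expressed in other skin cells as well, and which cells gave its signal was not tested. The summed signal of the 25 genes was 22241 to 51477 in early catagen and 12247, 12485 and 13184 at P41.

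Promoters of 4 fallen pigment genes hold the hexamer CATGTG, an E-box letter sequence of the kind that MITF is known to bind, and are printed for that reason (RefSeq, GRCm38.p6, strand of the gene, ending at the base before the start, CATGTG in capitals). They are Tyr (chr7:87493513-87493632, minus strand), Tyrp1 (chr4:80834133-80834212, plus strand), Dct (chr14:118052247-118052406, minus strand) and the upstream of 2 promoters of Trpm1 (chr7:64153675-64153834, plus strand), with the first base of the match 21, 46, 150 and 141 bases before the start.
Tyr: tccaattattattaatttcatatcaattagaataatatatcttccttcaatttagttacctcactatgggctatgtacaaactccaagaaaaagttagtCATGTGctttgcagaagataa
Tyrp1: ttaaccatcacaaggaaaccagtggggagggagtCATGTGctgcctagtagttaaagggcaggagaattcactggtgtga
Dct: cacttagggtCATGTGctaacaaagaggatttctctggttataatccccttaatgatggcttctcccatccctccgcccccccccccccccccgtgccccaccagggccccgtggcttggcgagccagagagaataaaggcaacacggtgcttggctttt
Trpm1: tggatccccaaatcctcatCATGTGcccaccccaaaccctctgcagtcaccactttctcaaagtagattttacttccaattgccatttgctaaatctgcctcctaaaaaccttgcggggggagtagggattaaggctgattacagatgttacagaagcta
CATGTG on either strand was found in the 250 bases before the start of 8 of 18 melanocyte genes with a promoter in the table and of 13.8% of all genes (12.3% of promoters). The match says nothing of binding in these samples.

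Among transcription factors of the follicle matrix falls also prevailed. Of 28 measured, 16 fell and 3 rose (median −0.84). Lef1, the nuclear partner of beta-catenin in the matrix and precortex, measured 846 to 1842 (median 1144) in early catagen and 127, 129 and 199.9 at P41, and fell by 3.00 ± 0.26 on the log2 scale (adjusted p = 0.00013). Dlx4 and Dlx3, homeobox factors of the matrix, fell by 2.46 ± 0.19 and 1.62 ± 0.12. Msx2, a homeobox factor needed for shaft differentiation, had signals of 3665 to 4497 (median 3902) and, at P41, of 1267, 866 and 1008, and fell by 1.94 ± 0.13 on the log2 scale (adjusted p = 6.6e-05). Cux1, a factor of the sheath, fell by 1.19 ± 0.08, with P41 values of 1634, 1607 and 1571 that lay within a few percent of each other. Muscle, dermis and nerve sheath genes, described below, rose on the arrays on which these factors fell, and the part of a changed mix of tissue in the falls was not tested.

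Genes of dividing cells fell almost without exception. Of 54 mitosis genes measured, 51 fell and none rose (median −1.38). Kif11, a motor of the mitotic spindle, measured 306 to 590.4 (median 443) in early catagen and 147, 114 and 118 at P41, and fell by 1.78 ± 0.20 on the log2 scale (adjusted p = 0.00045). Ncapg, a condensin subunit, had signals of 241 to 499 (median 395) in early catagen and 101, 63.1 and 87.5 at P41, and fell by 2.12 ± 0.26, and Nek2, a centrosome kinase, fell by 2.47 ± 0.33. Mki67 itself measured 1849.5 to 3351 (median 2987) in early catagen, and fell by 1.97 ± 0.29 on the log2 scale (adjusted p = 0.0013). P41 replicate 1 was the highest P41 array for Kif11, Ncapg, Nek2 and Mki67. Against P37 alone, 35 of the mitosis genes fell, and against P39 alone 45. Without P37 replicate 2 it was 51.

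DNA replication genes moved the same way, 31 of 47 down and none up (median −0.76). Tk1, the thymidine kinase of S phase, measured 476 to 978 (median 714) in early catagen and 263, 151 and 127 at P41, and fell by 1.99 ± 0.29 on the log2 scale (adjusted p = 0.0013), and Ccne1, a cyclin of the G1/S transition, fell by 1.22 ± 0.19. The count of falls was 16 without P41 replicate 2 and 14 without P41 replicate 3, and 7 with P37 alone as early catagen. Among 26 CDK inhibitors and G1 regulators 12 fell (46.2%) and 2 rose (7.69%), beside 18.5% and 20.6% of all genes. Rises numbered 1 without P39 replicate 2, 1 without P41 replicate 1 and 1 without P41 replicate 3. The count of falls in this list was 7 without P41 replicate 2 and 7 without P41 replicate 3, and 5 with P37 alone as early catagen. Mycn and Mycl, growth-promoting transcription factors of the MYC family, fell by 2.53 ± 0.22 and 2.09 ± 0.16. Mycn measured 727 to 1261 (median 1190.1) in early catagen and 246, 170.5 and 149 at P41. The cell cycle inhibitor Cdkn1a fell by 0.37 ± 0.11 (adjusted p = 0.031), with P41 values of 5934, 6390.0 and 7083 against 7090.0 to 8929 (median 8814), and did not pass without P37 replicate 1 or 3, P39 replicate 1 or P41 replicate 1 or 2 (adjusted p = 0.0526 to 0.099). For Cdkn1b, the p27 inhibitor, the difference was 0.42 ± 0.15 (adjusted p = 0.056).

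Promoters of 3 mitotic genes among those with the smallest p hold CCAAT, the letters of the CCAAT box, near the start (RefSeq, GRCm38.p6, strand of the gene, ending at the base before the start). Cenpf (chr1:189688087-189688206, minus strand) and Nek2 (chr1:191821353-191821472, plus strand) have it on the strand shown, and Kif11 (chr19:37376262-37376381, plus strand) on the other strand, where it reads ATTGG.
Cenpf: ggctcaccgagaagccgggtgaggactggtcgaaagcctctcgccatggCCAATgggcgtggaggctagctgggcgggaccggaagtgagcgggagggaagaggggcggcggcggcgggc
Nek2: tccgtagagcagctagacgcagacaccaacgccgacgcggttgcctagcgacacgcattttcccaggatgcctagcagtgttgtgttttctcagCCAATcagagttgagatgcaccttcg
Kif11: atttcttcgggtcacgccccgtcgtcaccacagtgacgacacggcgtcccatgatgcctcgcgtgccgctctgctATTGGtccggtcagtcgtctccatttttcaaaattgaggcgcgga
CCAAT on either strand occurred within 250 bases before the start of 33 of 45 mitosis genes with a promoter in the table and of 37.5% of all genes (33.8% of promoters).

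Growth metabolism was lower at P41 by the same measure. Of 10 genes of polyamine and arginine metabolism 6 fell and 1 rose (median −0.78), and none rose without P37 replicate 3, P39 replicate 2, P39 replicate 3 or any of the P41 arrays. Arg2, a mitochondrial arginase, measured 772 to 1099.9 (median 838) in early catagen and 264, 164 and 256 at P41, and fell by 1.96 ± 0.17 on the log2 scale (adjusted p = 0.00016), and Odc1, the first enzyme of polyamine synthesis, fell by 1.23 ± 0.28. Ribosomal protein genes fell in 30 of 48 cases by small steps (median −0.34), with Rps25 at 1010.5 to 1082 (median 1043) in early catagen and 720.1, 672 and 655 at P41. The 2 that rose were Rpl3l, a ribosomal protein specific to muscle (1.37 ± 0.20), and Rpl39l (0.97 ± 0.17). With quantile normalization of the arrays 11 fell (median −0.13), and with P37 alone as early catagen 5 fell. The count of ribosomal falls was 17 without P41 replicate 1 and 17 without P41 replicate 2, and probe sets of these genes may detect near-identical copies. Among heat shock and unfolded protein response genes 6 of 29 fell (20.7%) and 3 rose (10.3%), beside 18.5% and 20.6% of all genes. Chac1, a glutathione-degrading enzyme of the stress response, fell by 0.99 ± 0.15, and Dnajb9, a chaperone of the endoplasmic reticulum, rose by 0.64 ± 0.10.

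Genes held to start or accompany catagen moved in both directions. Of 21 genes measured, 7 rose (33.3%) and 3 fell (14.3%), beside 20.6% and 18.5% of all genes (list median 0.38). The count of rises was 4 without P41 replicate 2 and 4 without P41 replicate 3. Fgf5, the growth factor whose loss prolongs anagen, measured 564 to 1010.1 (median 763) in early catagen and 99.1, 55.3 and 74.0 at P41, and fell by 3.35 ± 0.22 on the log2 scale (adjusted p = 6.6e-05). Its 2 groups were wide apart, and at P44, the telogen day, the arrays stood at 2.8, 8.9 and 7.8. Ptgds, a prostaglandin D2 synthase, measured 1575 to 5400.5 (median 3463) in early catagen and 372, 499 and 514 at P41, and fell by 2.77 ± 0.37 on the log2 scale (adjusted p = 0.00087). Clu, the chaperone clusterin, fell by 0.80 ± 0.09. On the other side, Igfbp3, which binds insulin-like growth factors, measured 1146 to 2987 (median 1858) in early catagen and 4683, 7589 and 6323 at P41, and rose by 1.77 ± 0.34 on the log2 scale (adjusted p = 0.0045). Thrombospondin 1 (Thbs1), an inhibitor of vessel growth, had signals of 1175 to 3616 (median 1839) in early catagen and 6342, 6148 and 6266 at P41, and rose by 1.60 ± 0.33 on the log2 scale (adjusted p = 0.0062). The ligands Tgfb2 and Tgfb3 rose by 1.06 ± 0.28 and 0.95 ± 0.21 and the receptor Tgfbr2 by 0.81 ± 0.15, whereas for Tgfb1 the difference was 0.38 ± 0.19 (adjusted p = 0.15), and 0.21 without P41 replicate 1 and 0.59 without P41 replicate 3. Tgfb2 did not pass without P41 replicate 2 or 3 (adjusted p = 0.063 to 0.083). Hairless (Hr), a nuclear corepressor needed for catagen, gave 0.55 ± 0.22 (adjusted p = 0.075), and the vitamin D receptor Vdr gave −0.16 ± 0.11 (adjusted p = 0.27).

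Cell death genes rose more often than they fell, 13 against 1 of 40 measured out of 52 on the list (median 0.25). Rises made up 32.5% of those measured and falls 2.5%, beside 20.6% and 18.5% of all genes. Bnip3, a mitochondrial protein of cell death and mitophagy, measured 1025 to 1860.5 (median 1638) in early catagen and 3170.1, 4000.3 and 5365 at P41, and rose by 1.45 ± 0.23 on the log2 scale (adjusted p = 0.002). Casp12, a caspase of the endoplasmic reticulum, rose by 0.89 ± 0.13 and Casp1, the caspase of interleukin 1 processing, by 0.86 ± 0.17. Birc3, an inhibitor of apoptosis that is not a death effector, rose by 1.00 ± 0.17. Cidec, named for its homology to death effectors and known as a lipid droplet protein of fat cells, rose by 1.49 ± 0.21, and it is counted among the fat genes too. Bcl2l11 (BIM), which promotes apoptosis, rose by 0.70 ± 0.19, and did not pass without P41 replicate 1 or 3 (adjusted p = 0.065 to 0.067). The 1 that fell was Dffa, the inhibitor of the apoptotic nuclease, by 0.47 ± 0.12, which did not pass without P41 replicate 2 or 3 (adjusted p = 0.0528 to 0.066). The number that rose was 7 without P41 replicate 2.

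Hedgehog signalling, which drives matrix growth, had its ligand and targets lower. Of 15 genes 5 fell (3 without P41 replicate 2) and 3 rose. That is 33.3% and 20%, beside 18.5% and 20.6% of all genes. Shh measured 494 to 1461 (median 972) in early catagen and 277, 229.9 and 333 at P41, and fell by 1.69 ± 0.35 on the log2 scale (adjusted p = 0.0062). The target Gli1 had signals of 279 to 560.2 (median 411) and, at P41, of 144, 138 and 122, and fell by 1.62 ± 0.19, and the receptor and target Ptch1 fell by 1.18 ± 0.15. The 3 that rose are coreceptors or carriers of the ligand, Gas1 (1.18 ± 0.24), Cdon (1.06 ± 0.23) and Scube2 (0.96 ± 0.22). For the signal transducer Smo the difference was 0.11 ± 0.13 (adjusted p = 0.53).

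Of 45 WNT genes 12 fell (26.7%) and 5 rose (11.1%), beside 18.5% and 20.6% of all genes (list median −0.08). Rises numbered 8 without P37 replicate 2, 1 without P41 replicate 2 and 3 without P41 replicate 3. Beside Lef1, the ligand Wnt5a measured 1515 to 1972 (median 1732) in early catagen and 703, 421 and 482 at P41, and fell by 1.71 ± 0.16 on the log2 scale (adjusted p = 0.00019), Wnt11 fell by 1.32 ± 0.17, the receptor Fzd10 by 1.46 ± 0.20 and the inhibitor Nkd2 by 1.32 ± 0.14. In the BMP pathway 6 of 24 fell (25%) and 2 rose (8.3%), beside the same shares of all genes. Rises numbered 4 without P41 replicate 1 and 1 without P41 replicate 2. The pseudoreceptor Bambi had signals of 4045 to 5104 (median 4202) in early catagen and 1952, 1283 and 1751 at P41, and fell by 1.40 ± 0.14, and the inhibitory SMADs fell too, Smad6 by 0.96 ± 0.11 and Smad7 by 0.81 ± 0.13. The receptor Notch1 fell by 0.56 ± 0.09 and the effector Heyl by 1.55 ± 0.13, while Notch4, a receptor of vessel walls, rose by 1.33 ± 0.18. Of 18 Notch genes 3 fell (16.7%) and 2 rose (11.1%), beside 18.5% and 20.6% of all genes.

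Members of the FGF and of the IGF and EGF families moved in both directions. Of 19 FGF genes 5 rose (3 without P41 replicate 2) and 2 fell, which is 26.3% and 10.5%, beside 20.6% and 18.5% of all genes. Fgf13, an intracellular member, measured 265 to 377 (median 328) in early catagen and 771, 746 and 662 at P41, and rose by 1.17 ± 0.13 on the log2 scale (adjusted p = 0.00039). Fgf18, a ligand made by resting follicles, had signals of 45.5 to 139.7 (median 95.3) and, at P41, of 165, 346 and 183, and rose by 1.34 ± 0.39, but did not pass without P41 replicate 2 or 3 (adjusted p = 0.0533 to 0.12). In the IGF and EGF families 8 of 21 rose (4 without P41 replicate 2) and 3 fell (1 without P41 replicate 3). Rises made up 38.1% of this list and falls 14.3%, beside 20.6% and 18.5% of all genes. Egf itself measured 102 to 169 (median 127) in early catagen and 476, 305 and 313 at P41, and rose by 1.44 ± 0.20 on the log2 scale (adjusted p = 0.0012), with P41 replicate 1 the highest. Igfbp7, which binds insulin-like growth factors, rose by 0.67 ± 0.13.

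Genes of the bulge and hair germ rose in 17 of 25 cases and fell in 3 (median 0.73). Nfatc1, a factor of quiescent stem cells, measured 259.7 to 657 (median 437) in early catagen and 899, 1428 and 1461 at P41, and rose by 1.52 ± 0.27 on the log2 scale (adjusted p = 0.0031). Cd34, which marks bulge cells and also vessels and fibroblasts, had signals of 1930.4 to 3545 (median 2542) and, at P41, of 4645, 5507 and 6082, and rose by 1.09 ± 0.20 on the log2 scale (adjusted p = 0.0036). Npnt, a basement membrane protein of the bulge, rose by 1.19 ± 0.19, Krt15 by 0.93 ± 0.26, Itga6 by 0.71 ± 0.10 and Lgr5, a receptor of the hair germ, by 0.74 ± 0.24. The 3 that fell were Wif1, an inhibitor of WNT ligands (1.51 ± 0.30), the cadherin Cdh3 (0.73 ± 0.14), also expressed in the matrix, and Itgb6 (0.74 ± 0.24). The count that rose was 7 without P41 replicate 2 and 11 without P41 replicate 3. Krt15 did not pass without P41 replicate 2 or 3 (adjusted p = 0.079 to 0.083). Lgr5 did not pass without P37 replicate 1 or 3, P39 replicate 2 or 3 or P41 replicate 1 or 2 (adjusted p = 0.0598 to 0.14). Itgb6 did not pass without P37 replicate 1 or 3, P39 replicate 1, 2 or 3 or P41 replicate 2 or 3 (adjusted p = 0.062 to 0.16), and without P41 replicate 3 its difference was −0.43. Several members, among them Postn, Cd34 and Aspn, are expressed in the dermis as well, where 25 of 48 genes rose and the summed signal was 163280.0 to 295614 in early catagen and 276048, 357550.0 and 353444 at P41. The part of the dermis in the rise of the list was not tested.

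Of 29 dermal papilla genes 4 rose (2 without P41 replicate 2) and 6 fell (median 0.14). That is 13.8% and 20.7%, beside 20.6% and 18.5% of all genes. Cntn1, a cell adhesion protein, measured 102 to 154 (median 143) in early catagen and 70.0, 62.0 and 63.4 at P41, and fell by 1.03 ± 0.16 on the log2 scale (adjusted p = 0.0016). The ligand Bmp6 fell by 1.05 ± 0.20, and the integrin Itga8 rose by 0.88 ± 0.17. Wnt5a, Wif1 and Ptch1, given above, are in this list too.

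Of 8 keratins of the outer root sheath and companion layer 1 rose and 1 fell (median 0.04). Each is 12.5% of the list, beside 20.6% and 18.5% of all genes. With quantile normalization 3 rose and 1 fell (median 0.305). Krt75, the keratin of the companion layer, measured 15464 to 18968 (median 17760.2) in early catagen and 7696, 6909 and 8672 at P41, and fell by 1.18 ± 0.11 on the log2 scale (adjusted p = 0.00017). Krt16, a keratin of outer root sheath cells and of stressed epidermis, had signals of 1793 to 2282 (median 1962) in early catagen and 4240.3, 9289.9 and 10251 at P41. All P41 values of Krt16 were above the narrow early catagen range, replicate 1 by the least, and the gene rose by 1.91 ± 0.25 on the log2 scale (adjusted p = 0.00075). For Krt17 the difference was −0.32 ± 0.11 (adjusted p = 0.051), for Krt6a 0.24 ± 0.13 (adjusted p = 0.17), and Krt14, the basal keratin, lay at 20508 to 27979.8 (median 23792) and 22230.5, 23940.5 and 24361 with 0.00 ± 0.11 (adjusted p = 1). At P44 Krt16 was at 216, 412 and 664.

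The cornified epidermis list held the deepest fall of the comparison and also rises. Of 44 genes 8 fell (18.2%) and 5 rose (11.4%), with a median of 0.46, beside 18.5% and 20.6% of all genes. Sprr1b, a small proline-rich protein of the cornified envelope, measured 3158 to 7050.1 (median 4290.1) in early catagen and 231, 107 and 103 at P41, and fell by 5.01 ± 0.33 on the log2 scale (adjusted p = 6.6e-05). Lce3c and Lce3a, late cornified envelope proteins of repair epidermis, fell by 3.49 ± 0.40 and 2.96 ± 0.38 (2 of 3 P41 arrays of Lce3a were under the floor), Sprr2h by 2.54 ± 0.23, Ivl (involucrin) by 1.58 ± 0.21 and Tgm1, the transglutaminase of the envelope, by 0.85 ± 0.10. Without P39 replicate 2, 8 of the list fell, and with P37 or P39 alone as early catagen 7 and 7 did. On other days Sprr1b stood at 29.4 and 76.9 at P25, 3733, 3537 and 3195 at P29 and 32.1, 66.7 and 182 at P44. Lce3c stood at 21.9 and 32.8 at P25, 363, 890 and 942 at P29 and 45.3, 50.9 and 229 at P44. Whether epidermis or follicle gave these signals was not tested.

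The number of rises in this list moved with single arrays. P39 replicate 2 was the lowest early catagen array in 29 of the 44 genes. Krt10, a keratin of the suprabasal epidermis, stood at 3728 there and at 18946 to 29632 on the other 5, and at 32049.9, 34095 and 32352 at P41, with a difference of 0.90 ± 0.58 (adjusted p = 0.25). Loricrin (Lor) and filaggrin (Flg) gave 0.94 ± 0.52 (adjusted p = 0.18) and 1.09 ± 0.58 (adjusted p = 0.17). Without P39 replicate 2 the differences were 0.46 for Krt10 (adjusted p = 0.0501), 0.55 for Lor (adjusted p = 0.0321, past the threshold) and 0.68 for Flg (adjusted p = 0.102). The genes that rose with all arrays included Hrnr (1.57 ± 0.53), Lce1m (1.81 ± 0.57) and Lce1l (1.57 ± 0.47), and without P39 replicate 2 these were 1.20, 1.39 and 1.23. Hrnr did not pass without P37 replicate 3, P39 replicate 1 or 3 or P41 replicate 1, 2 or 3 (adjusted p = 0.0516 to 0.13). Lce1m did not pass without P37 replicate 3, P39 replicate 3 or P41 replicate 1, 2 or 3 (adjusted p = 0.0559 to 0.11), nor Lce1l without P41 replicate 1, 2 or 3 (adjusted p = 0.0513 to 0.11). The number that rose was 9 without P37 replicate 1, 2 without P37 replicate 3, 15 without P39 replicate 2, 2 without P39 replicate 3, 1 without P41 replicate 2 and 0 without P41 replicate 3, and without P39 replicate 2 the median was 0.26. Summed over the 44 genes, the signal was 196543 to 325539 in early catagen and 293970.0, 361321 and 350817 at P41.

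Alarm and barrier stress genes held 5 falls and 3 rises (1 without P41 replicate 3) among 25. That is 20% and 12%, beside 18.5% and 20.6% of all genes. S100a8, a calcium-binding protein of stressed epithelium and neutrophils, measured 1229 to 3354 (median 2654) in early catagen and 432, 382 and 460.5 at P41, and fell by 2.51 ± 0.30 on the log2 scale (adjusted p = 0.00056). Saa3, an acute-phase protein, fell by 1.10 ± 0.18. In the sebaceous gland list 6 of 18 rose (33.3%) and 2 fell (11.1%), beside 20.6% and 18.5% of all genes. Elovl3, a fatty acid elongase of sebocytes, measured 2245 to 2797 (median 2546) in early catagen and 799, 1344 and 1695 at P41, and fell by 1.05 ± 0.21, and Fads2, a desaturase, fell by 1.24 ± 0.25, while Plin2, a lipid droplet protein, rose by 0.44 ± 0.11, with an adjusted p of 0.0594 without P41 replicate 2. The number of sebaceous genes that rose was 3 without P37 replicate 3, 3 without P39 replicate 3, 0 without P41 replicate 2 and 2 without P41 replicate 3.

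**Figure D4:**
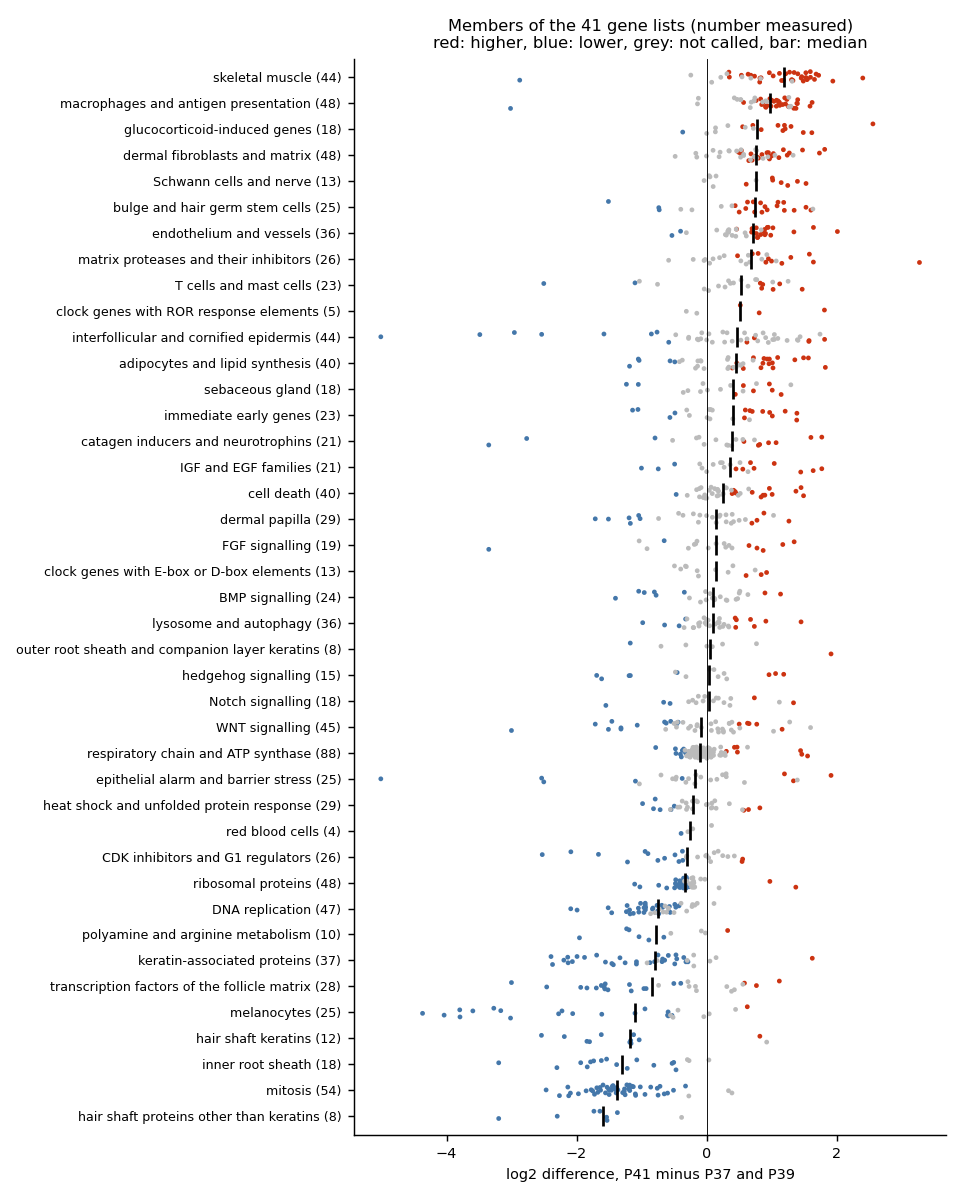
Each point is a gene of 1 of the 41 lists (number measured in brackets) at its log2 difference between mid and early catagen. Red points rose, blue points fell, grey points were not called, and black bars are the medians, from −1.59 for shaft proteins other than keratins to 1.19 for skeletal muscle.

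Genes of tissue around the follicles rose as well. The methods of the study name Des, Vim and S100a4, given below, among markers of tissue composition. The part of a changed mix of tissue in the rises of muscle, dermis, vessel, nerve sheath, leukocyte and fat genes was not tested. Skeletal muscle genes, from the muscle sheet below the skin, rose in 35 of 44 cases and fell in 1 (median 1.19), and their summed signal was 211582 to 308286 in early catagen and 436789, 413826 and 459452 at P41. Myot, a protein of the Z-disc, measured 1749 to 2532 (median 2202) in early catagen and 6480.5, 6211 and 7639.5 at P41, and rose by 1.68 ± 0.14 on the log2 scale (adjusted p = 0.00013). Desmin (Des) rose by 1.54 ± 0.19, Tnnt3 by 1.34 ± 0.14 and Ldb3 by 1.59 ± 0.20. The exception was Tnni1, the troponin I of slow muscle, which measured 156 to 374 (median 273) in early catagen and 27.7, 5.1 and 15.6 at P41, all under the floor, and fell by at least 2.88. Trim63, a ubiquitin ligase of muscle breakdown, rose by 2.40 ± 0.57, with P41 replicate 3 at 7915 and replicates 1 and 2 at 1128 and 1178, and by 1.47 without P41 replicate 3. Without P39 replicate 2, 33 muscle genes rose.

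Respiratory chain genes as a whole lay near 0, with 10 of 88 down, 7 up and a median of −0.10. That is 11.4% and 7.95%, beside 18.5% and 20.6% of all genes. The number down was 6 without P37 replicate 1, 6 without P37 replicate 3, 6 without P39 replicate 2, 6 without P39 replicate 3, 4 without P41 replicate 2 and 5 without P41 replicate 3. The 3 with the largest rises were isoforms of cytochrome oxidase subunits found in muscle, Cox6a2 (1.55 ± 0.20), Cox7a1 (1.46 ± 0.19) and Cox8b (1.44 ± 0.17), which moved with the muscle list. Cox8a, the general isoform, measured 4830.1 to 6039 (median 5698) in early catagen and 4108, 3985 and 3983 at P41, and fell by 0.47 ± 0.09.

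In the dermis 25 of 48 genes rose and none fell (median 0.76). Pdgfra, the receptor that marks fibroblasts, measured 1184 to 1643 (median 1449.7) in early catagen and 3240.2, 3018 and 3611 at P41, and rose by 1.18 ± 0.12 on the log2 scale (adjusted p = 0.00029). Vimentin (Vim) had signals of 5559 to 9031 (median 7003) and, at P41, of 14326, 13485 and 14098, and rose by 0.95 ± 0.15, S100a4 by 1.73 ± 0.33, Fbln2, a matrix protein, by 0.92 ± 0.12, and Ogn, a small proteoglycan, by 1.00 ± 0.15. P39 replicate 2 was the lowest early catagen array in 26 of the 48 genes. Without it 25 rose, with a median of 0.69, and the number was 16 without P41 replicate 2.

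Matrix proteases and their inhibitors rose in 11 of 26 cases (42.3%, beside 20.6% of all genes) and none fell (median 0.68). Mmp11 (stromelysin 3) measured 80.4 to 762 (median 344) in early catagen and 1742, 3701 and 3354 at P41, and rose by 3.27 ± 0.67 on the log2 scale (adjusted p = 0.006). Adamts15, a protease that cuts proteoglycans, measured 204 to 292 (median 261) in early catagen and 535, 652 and 709 at P41, and rose by 1.29 ± 0.14. The related Adamts9 rose by 1.64 ± 0.29. The number that rose was 5 without P41 replicate 2 and 7 without P41 replicate 3.

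Vessel genes rose in 20 of 36 cases and fell in 2 (median 0.70). The number that fell was 1 without P37 replicate 1, 1 without P39 replicate 2, 1 without P41 replicate 1, 0 without P41 replicate 2 and 0 without P41 replicate 3, and the number that rose was 11 without P41 replicate 3. Myh11, the myosin of smooth muscle, measured 182 to 384 (median 314) in early catagen and 727, 1140.4 and 1001 at P41, and rose by 1.64 ± 0.23 on the log2 scale (adjusted p = 0.0012). Vegfc, a growth factor of lymphatic vessels, rose by 1.34 ± 0.21, and Vwf and Emcn, markers of blood vessel endothelium, by 0.93 ± 0.17 and 0.69 ± 0.11. Lyve1, found on lymphatic vessels and on some macrophages, had signals of 352 to 1205 (median 744) in early catagen and 4713, 1426 and 2916 at P41, and rose by 2.01 ± 0.46. Nerve sheath genes rose in 7 of 13 cases and none fell. Mbp, a myelin protein, measured 1080.4 to 1843 (median 1439.6) in early catagen and 4456, 3894 and 3849.5 at P41, and rose by 1.52 ± 0.20 on the log2 scale (adjusted p = 0.00081), although 1 of its 8 probe sets was called lower and 7 higher, and Pmp22 rose by 1.01 ± 0.12.

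Macrophage and antigen presentation genes rose in 30 of 48 cases and fell in 1 (median 0.98). Fcgr2b, an inhibitory Fc receptor, measured 672 to 1208 (median 959) in early catagen and 2852, 2252 and 2058 at P41, and rose by 1.34 ± 0.18 on the log2 scale (adjusted p = 0.00089). The chemokines Ccl9 and Ccl6 rose by 1.59 ± 0.22 and 1.62 ± 0.26, and Mrc1, the mannose receptor, by 1.21 ± 0.22. P41 replicate 1 was highest in Fcgr2b, Ccl9, Ccl6 and Mrc1, with Ccl6 at 9690.2, 4282 and 4726, and the summed signal of the list was 75184 to 130317 in early catagen and 189746, 144396 and 139217 at P41. Without P41 replicate 1 the number that rose was 21, and without P39 replicate 2 it was 27. The 1 gene that fell, Gpnmb, is a glycoprotein of pigment cells as well as of macrophages and is on both lists. It measured 4336 to 9719 (median 6431) in early catagen and 616, 854 and 1007 at P41, and fell by 3.02 ± 0.26 on the log2 scale (adjusted p = 0.00014).

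Mast cell proteases rose, Cma1 by 0.84 ± 0.17, Mcpt4 by 0.86 ± 0.20 and Cpa3 by 1.12 ± 0.23, within a list of T cell and mast cell genes of which 6 of 23 rose (3 without P41 replicate 2) and 2 fell. Mcpt4 had an adjusted p of 0.0501 without P41 replicate 2. The pair that fell was Kit and S100a8, given above. Rises made up 26.1% of the list and falls 8.7%, beside 20.6% and 18.5% of all genes. Fat and lipid genes rose in 17 of 40 cases (42.5%) and fell in 5 (12.5%), with the same shares of all genes beside them (median 0.46). Cd36, a fatty acid transporter, measured 3521 to 4417 (median 4008) in early catagen and 7581, 7454 and 8039.6 at P41, and rose by 0.96 ± 0.10 on the log2 scale (adjusted p = 0.0003). Lpin1, an enzyme of triglyceride synthesis, rose by 1.35 ± 0.14, and Plin5, a lipid droplet protein of tissues that burn fat, by 1.82 ± 0.24 with 3 early catagen arrays under the floor. Genes of cholesterol synthesis fell. Sqle (squalene epoxidase) measured 2706 to 3643 (median 3098) in early catagen and 1452, 1378 and 1273 at P41 and fell by 1.19 ± 0.11, and Insig1, a sterol sensor, fell by 1.04 ± 0.11. Red blood cell genes gave 1 fall among 4, Car2, a carbonic anhydrase, by 0.40 ± 0.12, which did not pass without P41 replicate 1 or 2 (adjusted p = 0.081 to 0.11). Among lysosome and autophagy genes 7 of 36 rose (19.4%) and 4 fell (11.1%), beside 20.6% and 18.5% of all genes. Rises numbered 4 without P41 replicate 2 and 3 without P41 replicate 3. Falls numbered 2 without P39 replicate 2, 2 without P39 replicate 3 and 2 without P41 replicate 2. Gusb, a lysosomal glucuronidase, rose by 0.67 ± 0.13, and Ctsc, a protease activator, fell by 0.99 ± 0.20.

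Other genes with the deepest falls follow, and which cells gave their signals was not tested. Tm4sf4, a membrane protein of the tetraspanin-like family, measured 491 to 1019 (median 895) in early catagen and 50.5, 6.9 and 39.9 at P41, with 1 P41 array under the floor, and fell by 4.30. Alox8, a lipoxygenase, and Stra6, the receptor that takes up retinol, each had 1 P41 array under the floor and fell by 4.28 and 4.20, with Stra6 at 599.9 to 1348 (median 1113) in early catagen and 90.9, 13.0 and 52.0 at P41. Sct, which encodes the hormone secretin, fell by 3.76 ± 0.32. Crisp3, a secreted cysteine-rich protein, measured 289.5 to 680.1 (median 487) in early catagen and 28.7, 21.1 and 9.2, all under the floor, at P41, and fell by at least 3.74. Sptssb, a subunit of the enzyme that starts sphingolipid synthesis, had signals of 1454 to 2117 (median 1745) in early catagen and 194, 116 and 129 at P41, and fell by 3.61 ± 0.18. Adh6b, an alcohol dehydrogenase, fell by 3.58 ± 0.24, and the cadherin Cdh6 by 3.57 ± 0.36.

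Several of the largest rises were high on the P41 arrays and low again at P44, the telogen day. Gm9789, a predicted gene, measured 62.8 to 3488 (median 806) in early catagen, 13986, 9914 and 12632 at P41 and 27.5, 31.0 and 5.6 at P44, where all were under the floor. Its early catagen values were widely spread, with P37 replicates 2 and 1 and P39 replicate 1 highest, and the gene rose by 4.14 ± 1.05 on the log2 scale (adjusted p = 0.015). Without P41 replicate 3 its adjusted p was 0.0505. Mmp11, given above, was at 420.4, 294 and 695 at P44. Pcdh8, a protocadherin, measured 32.9 to 197 (median 81.7) in early catagen, with 2 arrays under the floor, 544, 502 and 530.2 at P41 and 34.0, 5.0 and 64.5 at P44, and rose by 2.83 ± 0.50 on the log2 scale (adjusted p = 0.0031). Foxc2, a forkhead factor, measured 72.4 to 527 (median 160.2) in early catagen, 1007, 879 and 1078 at P41 and 212, 164 and 145 at P44, and rose by 2.61 ± 0.60 on the log2 scale (adjusted p = 0.0099). Krtap6-3 was at 123, 78.8 and 46.8 at P44 and Thbs1 at 1015, 707 and 935. The P44 values are given as levels beside the others, with no test.

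The remaining large rises came from genes of several kinds. Hlx, a homeobox factor, measured 5.0 to 69.6 (median 30.0) in early catagen, with 3 arrays under the floor, 143, 209 and 225 at P41 and 534, 242 and 401 at P44, and rose by 2.19 ± 0.24 on the log2 scale (adjusted p = 0.00039). Myoz3, a Z-disc protein of muscle, rose by 2.09 ± 0.27 and was at 776, 569 and 724 at P44. Slc38a5, an amino acid transporter with 5 early catagen arrays under the floor, rose by 2.40, to 175, 189 and 254 at P41, and was at 32.2, 85.2 and 49.4 at P44. Best2, an anion channel with 4 under it, rose by 2.45, to 139, 182 and 384, and was at 119, 64.5 and 5.4 at P44. BC034090, also with 4 under it, rose by 2.47, to 229.8, 326 and 279.5, and Slc8a3, a sodium-calcium exchanger with 2, by 2.23, to 193, 298 and 320.2. At P44 they were at 287, 224 and 222 and at 237, 184 and 330.2. Smoc1, a secreted matrix protein, measured 156 to 766 (median 395) in early catagen 1356, 1872 and 1845 at P41 and 679.5, 244 and 442 at P44, and rose by 2.14 ± 0.44 on the log2 scale (adjusted p = 0.0062). Tll1, a protease that processes collagen and BMP inhibitors, rose by 2.10 ± 0.35, to 249, 307 and 463, and was at 146, 116 and 172 at P44.

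**Figure D5:**
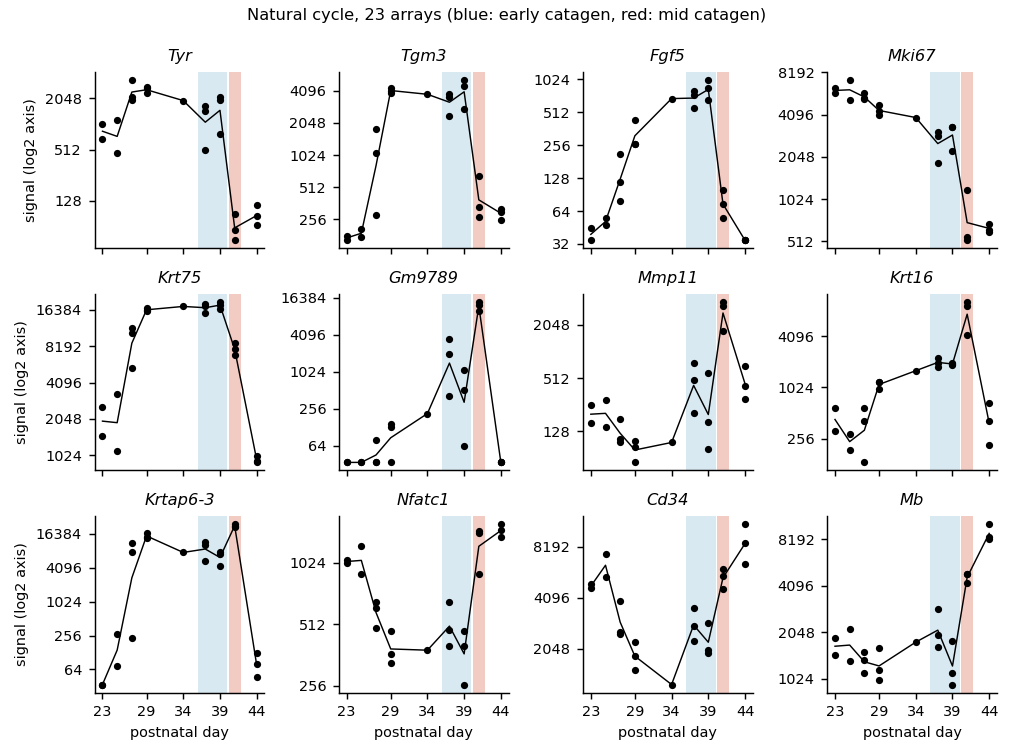
Signal of 12 genes on the 23 arrays of the natural cycle, on a log2 axis, by postnatal day, with low values drawn at the floor of 34.6. Lines join the means of the log2 signals of each day, the blue band marks early catagen and the red band mid catagen. Tyr, Tgm3, Fgf5 and Mki67 are low at P41 and P44, Gm9789, Mmp11, Krt16 and Krtap6-3 have their highest day mean at P41, and Nfatc1, Cd34 and Mb have theirs at P44.

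Clock genes were read beside the rest because skin clocks run with the time of day. The afternoon window spanned several hours, and the part of the sampling hour in these differences was not tested. Of 13 clock genes listed under E-boxes or D-boxes 3 rose (23.1%) and none fell, beside 20.6% and 18.5% of all genes. The 3 that rose were Per1 (0.84 ± 0.18), Rora (0.92 ± 0.20) and Cry2 (0.60 ± 0.17). Cry2 did not pass without P41 replicate 2 or 3 (adjusted p = 0.081 to 0.10). Of 5 listed under ROR elements 3 rose and none fell, namely Npas2 (1.81 ± 0.43, 1 early catagen array under the floor), Clock (0.80 ± 0.13) and Arntl, which encodes BMAL1 (0.51 ± 0.15). The number was 1 without P41 replicate 2 and 1 without P41 replicate 3, and Npas2 did not pass without P41 replicate 2 or 3 (adjusted p = 0.051 to 0.0586), nor Arntl without P41 replicate 2 or 3 (adjusted p = 0.077 to 0.12). Clock measured 509 to 708 (median 589) in early catagen and 916, 1116 and 1041 at P41, with no overlap, and Arntl 466 to 606 (median 539) and 613, 948 and 783. The strongly oscillating genes were spread among the P41 mice. Dbp stood at 1734, 195 and 232 at P41 against 194 to 1259 (median 791), with replicate 1 alone above the early catagen range and a difference of −0.50 ± 0.82 (adjusted p = 0.67). Nr1d1 stood at 950.5, 478 and 217 against 102 to 727 (median 488), a difference of 0.40 ± 0.70 (adjusted p = 0.68). Cry1 and Nfil3 had their lowest value of the 9 arrays on P41 replicate 1, at 181 and 891.

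Genes induced by glucocorticoids rose in 11 of 18 cases and fell in 1, Cdkn1a, given above (median 0.78). Rises made up 61.1% of the list and falls 5.56%, beside 20.6% and 18.5% of all genes. Klf9, a transcription factor, measured 2181 to 3237 (median 2639.8) in early catagen and 5793, 5295 and 7182 at P41, and rose by 1.17 ± 0.15 on the log2 scale (adjusted p = 0.00072). Pdk4, a kinase that shuts off glucose oxidation, had signals of 693 to 1696 (median 1007) in early catagen and 2995, 6413 and 12924 at P41, and rose by 2.55 ± 0.44 on the log2 scale (adjusted p = 0.0029). P41 replicate 3 had the highest value of the 9 arrays for Klf9, Pdk4, Sgk1 and Per1. Without it 5 of the list rose (median 0.62), and Pdk4 still rose, by 2.03 ± 0.41. Fam107a, which glucocorticoids also induce, stood at 268, 363 and 1013 at P41, highest on replicate 3, and rose by 2.22 ± 0.41. Of 23 immediate early genes 10 rose (43.5%) and 4 fell (17.4%), beside 20.6% and 18.5% of all genes. Rises numbered 6 without P39 replicate 1, 4 without P41 replicate 2 and 5 without P41 replicate 3. Egr3 measured 5266 to 6858 (median 5861) in early catagen and 2388, 3154 and 2607 at P41, and fell by 1.14 ± 0.13, Junb fell by 1.06 ± 0.13, and Klf2 and Klf6 rose by 0.97 ± 0.16 and 0.66 ± 0.11.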

How the data were processed

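Total RNA of whole dorsal skin was measured on Affymetrix Mouse Genome 430 2.0 arrays, 1 mouse per array. The authors deposited 1 table of signals (linear intensity) for 45037 probe sets and 33 arrays, made with MAS 5.0 as their methods and the submitters' processing notes state, with arrays scaled to a common mean (version not given in the sources used here). How low signals were treated before deposit is not given there either. The table has no present or absent calls, and the number of arrays limits the precision.

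From these signals, values below a floor of 34.6 (the 25th percentile of all values) were set to it and log2 was taken. Probe sets above the median of their array on at least 3 of 33 arrays (26988) were tested with limma 3.58.1 in R 4.3.3 (lmFit and eBayes, P41 against P37 and P39 as 1 group, 9 arrays, no covariate, Benjamini-Hochberg adjustment over all 26988). In simulated data of the same design, with independent noise, 100 changes of each size were planted in probe sets well above the floor. There 75% of 2-fold and 97% of 4-fold changes were recovered, with 11 false calls. Recovery near the floor, or with as many changes as were called here, was not tested. No 2 arrays held identical values.

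Gene symbols came from the platform annotation (34945 probe sets with 1 symbol, 932 with several, 9160 with none), and each gene is shown by the probe set with 1 symbol and the highest mean log2 signal over all arrays. Named were the 15 largest rises and 15 largest falls without overlap, up to 5 members with the smallest p of each of 41 gene lists, any member of the lists for shaft keratins, inner root sheath, melanocytes, cell death, catagen inducers, bulge, CDK inhibitors and clock genes, and composition markers that the methods name. Hrnr, Ivl, Krt14, Krtap6-3, Lce1l, Lce1m, Lyve1, Mb, Mki67, Scube2 and Smo were chosen after their values were seen. The comparison and lists were chosen with earlier results of these data known. Lists are described by counts and medians, with no test. Promoters are from RefSeq (GRCm38.p6). Alternatives covered the floor, filter, scaling, arrays in the fit, sex, replicate block, probe set choice, test and leaving out each array.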

Additional observations from a re-analysis of the deposited data

Results flagged for a closer look

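In the group of 6 early catagen arrays, the gap of the highest or lowest array to its nearest neighbour, as a share of the range of the group, passed Dixon's 95% critical value in 16 of the 209 genes examined. Chance flags about 1 in 20 such groups.

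P37 replicate 2 was the array apart in 6 genes, always on the side of mid catagen. It was the highest in the chloride channel Best2 (gap 0.707 of the range), the clock gene Cry2 (0.851), desmin (Des, 0.732) and the transporter Slc38a5 (1, since the other 5 arrays lay under the floor), and the lowest in the oxidase subunit Cox8a (0.633) and the integrin Itgb6 (0.672).

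P39 replicate 2 was the lowest in 7 genes, with 4 of the epidermis, Krt10 (0.784), Lor (0.744), Lce1l (0.677) and Lce1m (0.666), and Myh11 of smooth muscle (0.687), Pmp22 of nerve sheaths (0.647) and Rora of the clock (0.632). Without it the log2 differences were 0.46 for Krt10, 0.55 for Lor, 1.23 for Lce1l, 1.39 for Lce1m, 1.49 for Myh11, 0.94 for Pmp22 and 0.80 for Rora. P37 replicate 1 was the highest in the mast cell protease Mcpt4 (0.648), P37 replicate 3 the highest in Hlx (0.686), and P39 replicate 1 the lowest in Rpl39l (0.679).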

How the results depend on the processing

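No probe set called under both the main setting and an alternative changed direction. The number of probe sets past the test (9534, with 4699 higher and 4835 lower) stayed within 1.5 times under other floors, filters and scalings, a joint fit, sex as a covariate and other forms of the test. With P37 alone as early catagen it was 4569 (2303 higher, 2266 lower), with 1 probe set per gene, where fewer are tested, 5195 (2751 and 2444), and in male mice only, chosen after seeing the data and with fewer arrays, 5954 (2966 and 2988). Leaving out 1 array gave 5648 to 9654 (2676 to 4780 higher, 2972 to 4874 lower). An unmoderated t-test on the same floored log2 signals called 7322 at an unadjusted p under 0.01, the threshold of the methods, and 8547 after Benjamini-Hochberg adjustment. It is not the test of the methods, which was an analysis of variance on transformed values of selected probe sets. With the replicate number as a block 9088 were called (4523 and 4565), although same-numbered arrays deviated together no more than weakly (correlations −0.124 to 0.189), so the numbers were not taken as pairs.

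Counts within gene lists moved more than the total. Those of at least 5 that moved by more than 2 times are given against the main count, apart from the filter on all 33 arrays, which leaves fewer genes to test. With P37 alone as early catagen, rises numbered 2 against 6 for T cells and mast cells, 2 against 5 for WNT signalling, 8 against 17 for bulge and hair germ stem cells, 6 against 13 for cell death, 9 against 20 for endothelium and vessels, 3 against 10 for immediate early genes, 3 against 7 for lysosome and autophagy, 5 against 11 for matrix proteases and their inhibitors and 0 against 6 for sebaceous gland. With P37 alone as early catagen, falls numbered 5 against 12 for CDK inhibitors and G1 regulators, 7 against 31 for DNA replication, 0 against 10 for respiratory chain and ATP synthase and 5 against 30 for ribosomal proteins. With P39 alone, rises numbered 3 against 7 for lysosome and autophagy. With P39 alone, falls numbered 4 against 10 for respiratory chain and ATP synthase. In the joint fit, rises numbered 17 against 5 for interfollicular and cornified epidermis. In the joint fit, falls numbered 4 against 10 for hair shaft keratins and 9 against 29 for keratin-associated proteins. With quantile normalization, falls numbered 11 against 30 for ribosomal proteins. In male mice only, rises numbered 4 against 10 for immediate early genes, 17 against 5 for interfollicular and cornified epidermis and 3 against 7 for lysosome and autophagy. In male mice only, falls numbered 2 against 5 for hedgehog signalling, 2 against 10 for respiratory chain and ATP synthase and 5 against 30 for ribosomal proteins. With no filter on low signals, rises numbered 1 against 5 for interfollicular and cornified epidermis and 2 against 6 for sebaceous gland. With no filter on low signals, falls numbered 21 against 10 for respiratory chain and ATP synthase. With a floor at the 50th percentile, falls numbered 23 against 10 for respiratory chain and ATP synthase. In the unmoderated t-test, rises numbered 1 against 5 for interfollicular and cornified epidermis. In the unmoderated t-test, falls numbered 22 against 10 for respiratory chain and ATP synthase.

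Among genes not past the test, the sign of the log2 difference turned for some. With median centring of the arrays Krt14 came to −0.040, Sox10 to −0.0038 and Tchh to −0.0089. With P37 alone Krt14 came to −0.031 and Sox10 to −0.14, and in male mice Nfil3 came to 0.064 and Tchh to −0.034. Over the fits that left out 1 array, Krt14 ranged from −0.038 to 0.052, Tchh from −0.022 to 0.11, Sox10 from −0.11 to 0.18, Mitf from −0.11 to 0.015, Cry1 from −0.65 to 0.22, Nfil3 from −0.32 to 0.11, Dbp from −1.51 to 0.070 and Nr1d1 from −0.12 to 0.95. The cause was not tested. Signals near the floor limit what can be said of weak genes.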
